A study of Mus musculus with 12 samples.

Results

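The 10 genes H2-K1, H2-D1, B2m, Tap1, Tap2, Tapbp, Psmb8, Psmb9, Nlrc5 and Cd274 belong to MHC class I antigen presentation and its PD-L1 checkpoint, and were followed in mouse pancreatic ductal adenocarcinoma (PDAC) cells. They were chosen by name for their place in this pathway and are 10 of the 20432 genes with a deposited value. The 6 PDAC lines, named by number, were each profiled once as a Cre culture and once as the parental culture. The 6 Cre cultures, labelled JAK1 KO, had received Cre from the retrovirus pBabe-Cre-puro and had been selected at 2, 4 and 7 µg/ml puromycin, and the 6 parental cultures were labelled wild type. The labels name a growth medium with serum and no cytokine treatment. Parental cells carrying an empty vector were not analysed here, and the deletion, the infection and the drug selection therefore cannot be told apart.

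Cells cut their own proteins into peptides with the proteasome, and show them to CD8 T cells on MHC class I. Interferon gamma, acting through JAK1 and JAK2, makes cells exchange the standard catalytic proteasome subunits for the immunoproteasome subunits, and raises the transporter, the heavy chains and Nlrc5. The same signal raises PD-L1, which binds PD-1 on T cells and restrains them. Tumour cells that lose JAK1 are known for losing this induction, while the basal levels of these genes can also depend on NF-kappa B and on NLRC5, which acts at the X and Y boxes of class I promoters.

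The libraries held 11.5 to 18.0 M reads in genes (M, 1000000 reads), so 1 read was worth 0.0569 to 0.0896 normalised counts per M (CPM). Jak1 itself had 104 to 234 CPM in Cre libraries and 125 to 207 CPM in parental libraries, and a total over the gene does not show whether some exons were lost. Markers of ductal epithelium summed to 360 to 13234 CPM in Cre libraries and 445 to 12631 CPM in parental libraries. The low end was line 52419, which carried the ductal label. It had 0.54 CPM of Krt8 and 0.62 CPM of Cdh1 after Cre, and 0.82 and 0.37 CPM as parental cells. Other markers of the list were present in it. Krt18 had 188 CPM and Sox9 149 CPM after Cre, against 253 and 171 CPM in its parental cells. Low single markers were not particular to this line, as Epcam had 0.50 CPM in Cre and 0.61 CPM in parental cells of line 53369. The 10 measured of 12 leukocyte markers summed to 2.37 to 13.5 CPM in Cre and 2.67 to 37.0 CPM in parental libraries. Of the 10, 5 reached 1 CPM in any library. Cd68 reached the highest level of them, 23.1 CPM in parental cells of line 52424. Ptprc had 0.34 CPM in that library and 1.02 CPM in the Cre library of the line. The part of such cells in the results was not tested. In these bulk libraries, fewer cells with a transcript and less transcript per cell cannot be told apart.

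The DNA just before the genes' start sites is shown because the genes are known to share control elements there. The sequences are 200 bases upstream of RefSeq starts (GRCm38.p6), except for 225 bases that lie between the divergent genes Psmb9 and Tap1. Capitals mark matches on either strand to GGGATTCCC (kappa B), GAAANNGAA and GAANNGAAA (the repeats of interferon response elements in both arrangements), TTCNNNGAA (STAT site), TGACG (X2 box) and CCAAT (Y box). H2-K1 is read on the minus strand from chr17:34000348-34000547, H2-D1 on the plus strand from chr17:35262894-35263093 and B2m on the plus strand from chr2:122147487-122147686. The spacer is read on the plus strand, towards Tap1, from chr17:34187331-34187555, and Cd274 on the plus strand from chr19:29367238-29367437. The start sites used for H2-K1 and Cd274 lie within the annotated gene spans, and so do the stretches printed before them. Another H2-K1 start site has a window, not printed, with a further Y box.
H2-K1: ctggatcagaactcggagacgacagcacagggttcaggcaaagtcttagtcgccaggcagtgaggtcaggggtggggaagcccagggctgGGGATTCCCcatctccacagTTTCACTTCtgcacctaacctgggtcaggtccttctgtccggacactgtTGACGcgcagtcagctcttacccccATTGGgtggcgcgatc
H2-D1: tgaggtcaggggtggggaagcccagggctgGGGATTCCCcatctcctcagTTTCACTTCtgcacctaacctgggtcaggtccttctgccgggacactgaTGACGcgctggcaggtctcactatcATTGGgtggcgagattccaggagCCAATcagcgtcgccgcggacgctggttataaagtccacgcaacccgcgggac
B2m: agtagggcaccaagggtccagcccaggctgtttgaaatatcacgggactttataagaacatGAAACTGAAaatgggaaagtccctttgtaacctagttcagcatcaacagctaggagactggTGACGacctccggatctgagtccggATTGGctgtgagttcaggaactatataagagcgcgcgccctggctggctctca
Psmb9-Tap1 spacer: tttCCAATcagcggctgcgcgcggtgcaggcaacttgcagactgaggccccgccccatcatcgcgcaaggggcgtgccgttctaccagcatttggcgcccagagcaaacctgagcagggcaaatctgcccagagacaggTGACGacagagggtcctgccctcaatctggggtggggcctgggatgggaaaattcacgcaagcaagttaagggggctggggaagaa
Cd274: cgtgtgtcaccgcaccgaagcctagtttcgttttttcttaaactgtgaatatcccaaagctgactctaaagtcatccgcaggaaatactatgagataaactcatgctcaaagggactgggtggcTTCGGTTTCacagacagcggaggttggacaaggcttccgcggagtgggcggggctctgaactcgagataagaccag

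The windows of both heavy chains held the kappa B letters, the interferon repeat GAANNGAAA, the X2 box and the Y box in the same order. Their 250-base windows, longer than the stretches printed, were 88.3% identical over 188 aligned positions. B2m held the interferon repeat GAAANNGAA with an X2 and a Y box, the spacer held an X2 and a Y box only, and Cd274 held GAAANNGAA on the minus strand and none of the other motifs. The Psmb8 window (chr17:34197995-34198194, plus strand) held the STAT letters as TTCCCAGAA, and that of Tapbp a Y box. Of 32817 windows of 250 bases upstream of RefSeq starts, 0.302% held the kappa B letters, 7.12% GAAANNGAA, 6.31% GAANNGAAA, 7.01% the STAT letters, 17.7% the X2 box and 33.8% the Y box. A match is a description of letters and not a bound site.

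Setting Cre against parental cells compares cultures labelled JAK1 KO with their wild-type partners, and does not separate the deletion from the infection and the drug selection. Of the 10 genes, 7 reached the level needed for the test across all genes, and the other 3, Tap1, Psmb8 and Psmb9, were too low. None of the 7 passed limma with Benjamini-Hochberg adjustment over 12734 genes, where 0.0236% of genes were called lower and 0% higher. None passed edgeR, which called 0.0393% of genes lower and 0% higher, or DESeq2, which called 1.63% lower and 0.487% higher. As a description, the 7 estimates were below 0, against 50.1% of all genes tested, with a median log2 change of -0.18 against -0.00024 over all genes. Only Nlrc5 had an unadjusted p under 0.05, a threshold that 8.18% of all genes passed as lower and 6.96% as higher. Nlrc5 just met the filter of at least 1 CPM in at least 6 libraries. It did so in parental lines 52419, 52424, 53369 and 53371 and in Cre lines 52424 and 53371. Its entry into the test therefore leaned on the group where it was higher. None of the 7 was lower in 6 of 6 pairs, as 4.56% of all genes were, or higher in 6 of 6, as 4.11% were.

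**Figure D1:**
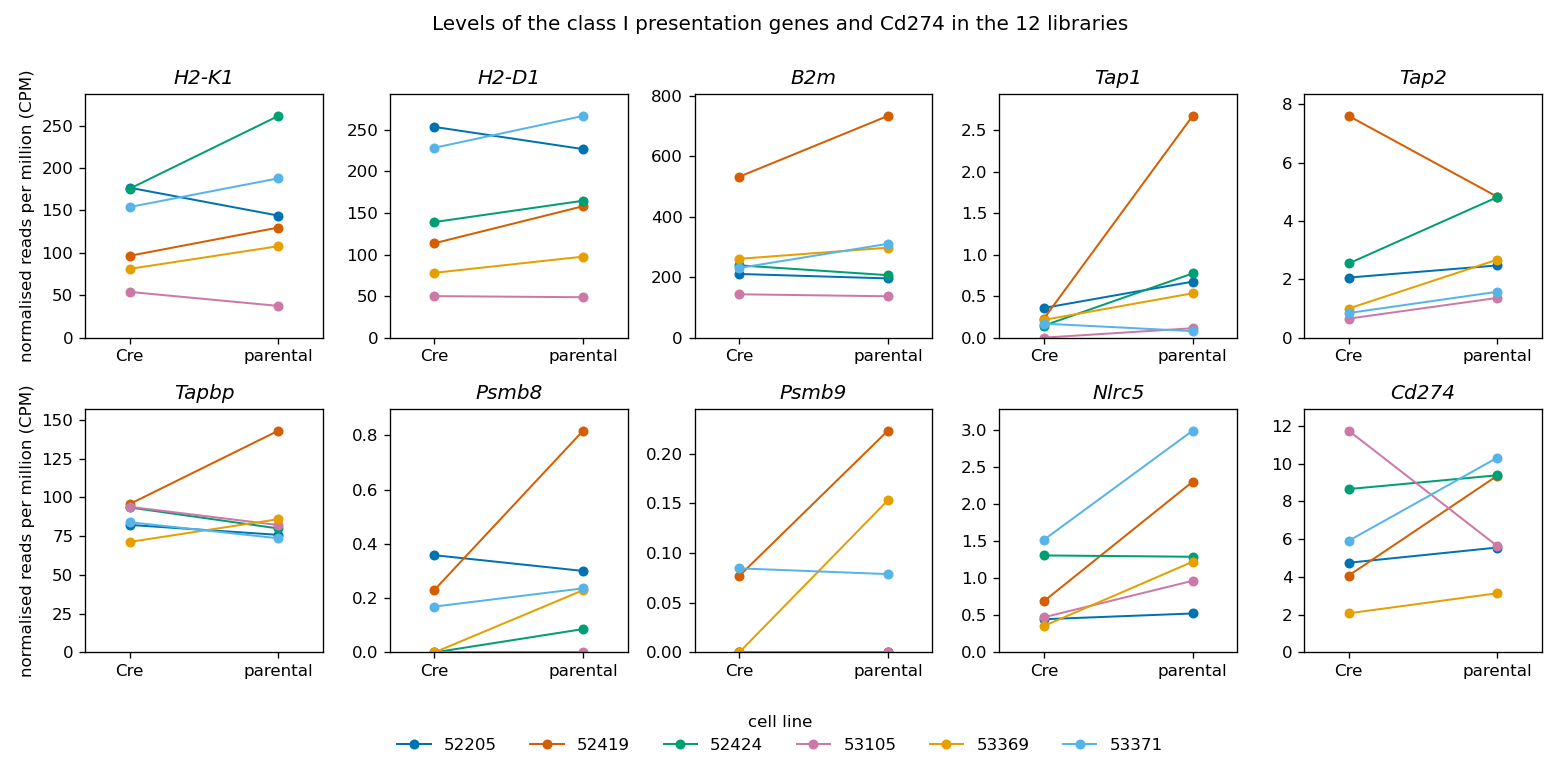
Level of each of the 10 genes in every library, as deposited normalised CPM, on a linear axis of its own from 0 for each gene; Cre libraries are drawn left of parental libraries and a coloured line joins the 2 libraries of a cell line. The scales run from under 1 CPM for Psmb9 to 733 CPM for B2m in parental line 52419, and for H2-K1, H2-D1 and B2m the lines differ more from each other than from their own Cre culture.

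H2-K1 (GRCm38 chr17:33996012-34000619, minus strand) encodes a classical heavy chain, the part of the class I molecule that holds the peptide. It had 53.9 CPM at the lowest, 125 at the median and 177 at the highest in Cre libraries, against 37.4, 137 and 261 CPM in parental libraries. The groups overlapped, with 3 parental libraries outside the range of the Cre libraries, and the lines differed more from each other than from their own Cre culture. The SD of the log2 level among parental lines was 0.95, against 0.44 for the Cre minus parental difference among pairs. The log2 difference was -0.15 (SE 0.144, 95% interval -0.47 to 0.18, limma adjusted p = 0.651), with 4 of 6 pairs lower in Cre cells. Lines 52205 and 53105 were the pairs with more H2-K1 after Cre, by 0.30 and 0.52 on the log2 scale.

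H2-D1 (chr17:35263094-35267497, plus strand), the other classical heavy chain in the table, ran closely with H2-K1. It had 50.0, 126 and 253 CPM at the lowest, median and highest in Cre libraries, against 48.6, 161 and 267 CPM in parental libraries. Its log2 difference was -0.18 (SE 0.0915, 95% interval -0.38 to 0.03, limma adjusted p = 0.386), lower in 4 of 6 pairs, with the same 2 lines, 52205 and 53105, on the higher side by 0.16 and 0.04. Without line 52419 it was -0.12. Lines 52419, 53369 and 53105 came in this order at the bottom of both heavy chains, in Cre and in parental libraries alike. Among parental libraries no 2 neighbours in the order of H2-K1 had overlapping counting intervals, and for H2-D1 1 of 5 neighbouring pairs did. Across the 12 libraries, 2 from each line, the log2 levels of both heavy chains had r = 0.88, and across the 6 pairs their differences had r = 0.86. Of the 50-base words of their transcripts, 8.79% in H2-K1 and 14.3% in H2-D1 also occur in other genes, mostly class I relatives. Of the 100-base words, 0% in H2-K1 and 4.64% in H2-D1 do. The counting could thus move some reads between class I genes, depending on the read length, which is not in the labels used. The mouse strain of the lines is not in the labels used, and reads of a haplotype other than that of the reference may be counted less well.

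B2m (chr2:122147687-122153082, plus strand), the light chain without which heavy chains do not reach the cell surface, was the most abundant of the genes. Its mean level per kilobase of exon was 313 CPM in Cre and 364 CPM in parental libraries, against 41.9 and 49.3 CPM per kilobase for H2-K1 and 55.7 and 62.2 CPM per kilobase for H2-D1. Exon length is the union over all annotated transcripts, 860 bases for B2m, 2938 for H2-K1 and 2579 for H2-D1. Their longest coding transcripts have 860, 1619 and 2102 bases, so the heavy chains come out lower by this measure. The same holds for Tap1, Psmb8 and Psmb9, at 5476, 3381 and 3660 bases against 2953, 1628 and 1352. Per library B2m had 143, 235 and 532 CPM at the lowest, median and highest in Cre cells, against 137, 252 and 733 CPM in parental cells. Line 53105 was lowest and line 52419 highest in both groups, so the line with the most light chain was not the one with the most heavy chain. The log2 difference of B2m was -0.12 (SE 0.104, 95% interval -0.35 to 0.12, limma adjusted p = 0.611), with 3 pairs lower and 3 higher. Without line 52419 it was -0.05.

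Tapbp (chr17:33919478-33929290, plus strand) encodes tapasin, which bridges the heavy chain to the transporter during peptide loading. It was the steadiest of the genes across lines, at 86.8 ± 9.44 CPM in Cre and 90.1 ± 26.3 CPM in parental libraries (SD, n = 6 each). The log2 difference was -0.02 (SE 0.115, 95% interval -0.28 to 0.24, limma adjusted p = 0.952), and its sign turned to 0.09 without line 52419 and to 0.03 without line 53369. Only those lines had less Tapbp after Cre, with 95.7 CPM in Cre and 143 CPM in parental cells of 52419, and 71.3 CPM in Cre and 86.0 CPM in parental cells of 53369.

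Tap1 and Tap2 encode the subunits of the transporter that carries peptides from the cytosol into the endoplasmic reticulum, and both subunits are needed for transport. Per kilobase of exon, Tap1 averaged 0.034 CPM in Cre and 0.148 CPM in parental libraries, far below Tap2 at 0.649 CPM per kilobase in Cre and 0.782 in parental libraries. Tap1 (chr17:34187556-34197225, plus strand) had 4, 3, 2, 0, 3 and 2 reads in the Cre libraries of lines 52205, 52419, 52424, 53105, 53369 and 53371, against 9, 36, 9, 2, 7 and 1 reads in their parental libraries. The parental line 52419 alone gave 36 of the 64 parental reads, against 14 reads in all Cre libraries. In that line the normalised ratio of parental to Cre was 11.6, with a 95% counting interval of 3.67 to 58.9, and in line 52424 it was 5.33 (1.1 to 50.7). Line 53371 had slightly more in Cre cells, 0.17 CPM against 0.08 CPM in parental cells, on 2 reads and 1 read. An exact sign-flip permutation test over the 6 pairs, on log2(CPM + 0.5), gave a 2-sided unadjusted p = 0.0625 for Tap1 (0.03125 is the lowest that 6 pairs can give). Counting intervals cover counting error only, and each line and condition has 1 library.

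Tap2 (chr17:34204479-34216321, plus strand) lies near Tap1 in the class II region, with Psmb8 between them, but did not follow it in every line. It had 2.06, 7.61, 2.55, 0.65, 1.00 and 0.85 CPM in the Cre libraries of lines 52205, 52419, 52424, 53105, 53369 and 53371, against 2.48, 4.83, 4.82, 1.36, 2.68 and 1.58 CPM in their parental libraries. Cre cells were lower in 5 of 6 pairs, and line 52419, where Tap1 differed most, was the exception, with 1.57 times the parental level (counting interval 1.14 to 2.19). In line 53369 the Cre level was 0.37 times the parental level (0.19 to 0.71). The log2 difference over all pairs was -0.47 (SE 0.226, 95% interval -0.98 to 0.04, limma adjusted p = 0.360), and without line 52419 it was -0.69.

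**Figure D2:**
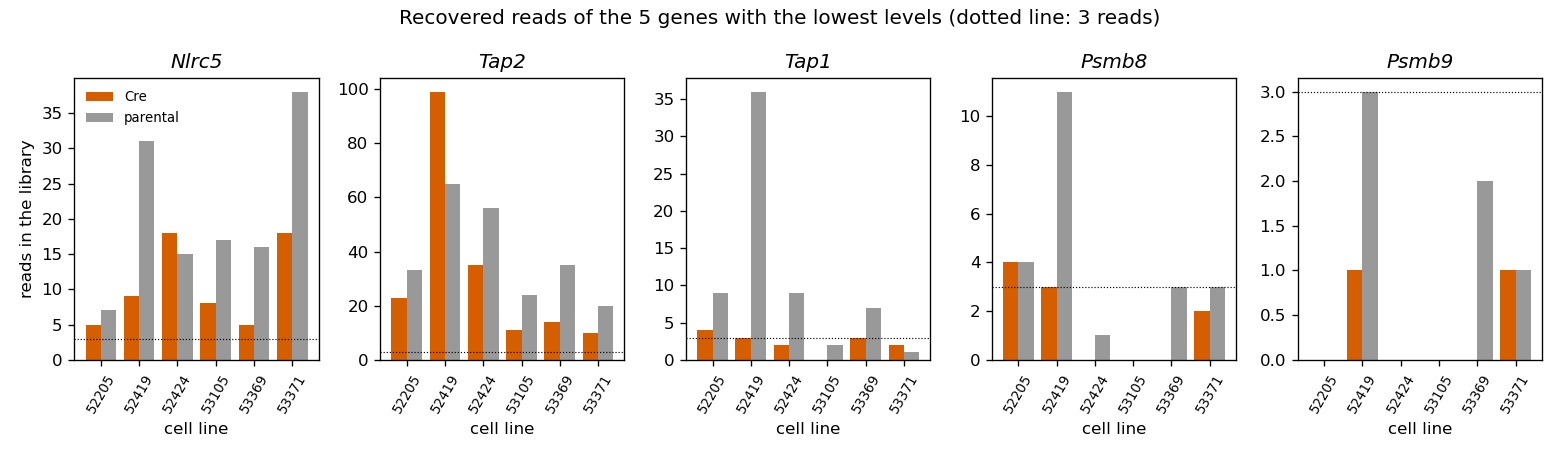
Recovered reads of Nlrc5, Tap2, Tap1, Psmb8 and Psmb9 in each library, with the Cre bar left of the parental bar for each cell line and a dotted line at 3 reads. Parental line 52419 has 36 reads of Tap1 and 11 of Psmb8, above every other library, while Tap2 is the gene with more reads in the Cre library of that line, 99 against 65 in parental cells.

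Psmb8 and Psmb9 encode immunoproteasome subunits that replace Psmb5 and Psmb6 in the catalytic core and favour peptides that fit class I. Psmb8 (chr17:34198195-34201454, plus strand) had 9 reads over the 6 Cre libraries and 22 reads over the 6 parental libraries, 11 of them in line 52419. Psmb9 (chr17:34182030-34187330, minus strand) had 2 reads in Cre and 6 reads in parental libraries, with at most 3 reads in any library. Differences were not detectable at this depth, where a count of 0 allows up to 3 reads in a library. Their standard partners were abundant, with 68.1 CPM per kilobase of Psmb5 in Cre and 66.2 in parental libraries, and 106 CPM per kilobase of Psmb6 in Cre and 102 in parental libraries.

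The third immunoproteasome subunit, Psmb10, was not scarce. Its mean was 15.9 CPM per kilobase in Cre and 14.3 in parental libraries, below its partner Psmb7 at 74.0 in Cre and 68.7 in parental libraries and far above Psmb8 at 0.0374 in Cre and 0.0823 in parental libraries. Psmb10 was higher in Cre cells in 6 of 6 pairs, as 4.11% of all genes tested were. Its log2 difference was 0.18 (limma adjusted p = 0.378). The log2 ratio of each immunoproteasome subunit to its partner differed between Cre and parental cells by -0.30 for Psmb8 to Psmb5, by -0.16 for Psmb9 to Psmb6 and by 0.06 for Psmb10 to Psmb7. Exact sign-flip permutation p-values of these 3 ratios, after Benjamini-Hochberg adjustment over them, were 0.469, 0.469 and 0.656. The first and second of these ratios rest on the few reads above and partly on the pseudocount.

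**Figure D3:**
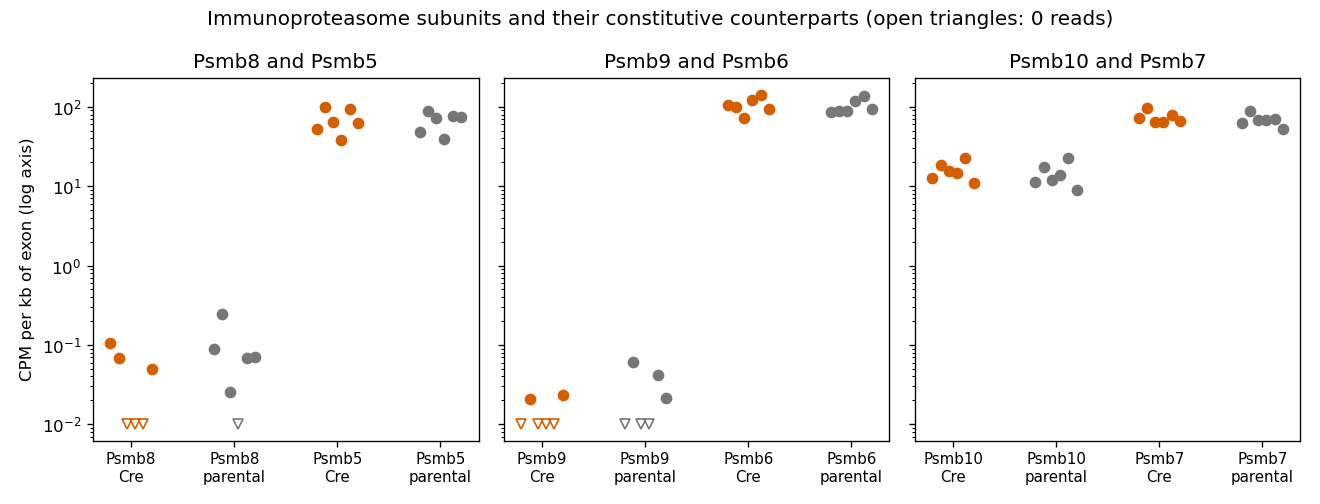
CPM per kilobase of exon of the 3 immunoproteasome subunits and their 3 standard partners in each library, on a log axis, with Cre left of parental libraries; open triangles at the bottom mark libraries with 0 reads and do not stand for a measured level. The standard subunits lie highest, Psmb10 lies between, and Psmb8 and Psmb9 lie lowest in both groups.

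Nlrc5 (chr8:94434335-94527272, plus strand), the transactivator of class I genes, had the estimate farthest from 0 among the 7 genes tested. It had 0.45, 0.69, 1.31, 0.47, 0.36 and 1.52 CPM in the Cre libraries of lines 52205, 52419, 52424, 53105, 53369 and 53371, against 0.53, 2.30, 1.29, 0.97, 1.22 and 2.99 CPM in their parental libraries. The groups overlapped, and 5 of 6 pairs were lower in Cre cells, with line 52424 nearly level. The log2 difference was -0.62 (SE 0.218, 95% interval -1.11 to -0.13, limma unadjusted p = 0.0181, adjusted p = 0.276). By the exact sign-flip permutation test its unadjusted p was 0.0625. Parental cells had 3.33 times the Cre level in line 52419 (counting interval 1.55 to 7.96), 3.43 times in line 53369 (1.2 to 12) and 1.97 times in line 53371 (1.1 to 3.66). The intervals of the remaining lines included 1. Their ratios were 1.17 in line 52205 (0.32 to 4.69), 0.99 in line 52424 (0.46 to 2.07) and 2.04 in line 53105 (0.83 to 5.45). The counts behind these values were 5 to 18 reads in Cre and 7 to 38 reads in parental libraries, and the counting intervals of all 5 neighbours in the order of lines overlapped in both groups. The pseudocount of 0.5 is of the size of these levels, and on the recovered reads edgeR gave -0.95 and DESeq2 -0.96, neither past its threshold.

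Cd274 (chr19:29362107-29388095, plus strand) had the widest spread of pair differences among the 7 genes tested. PD-L1, its product, is raised by interferon in most cell types. It had 4.75, 4.07, 8.65, 11.7, 2.07 and 5.92 CPM in the Cre libraries of lines 52205, 52419, 52424, 53105, 53369 and 53371, against 5.56, 9.37, 9.38, 5.63, 3.14 and 10.3 CPM in their parental libraries. Cd274 was lower in 5 of 6 pairs in Cre cells, while line 53105 had 198 reads after Cre against 99 reads in parental cells, a log2 difference of 1.00. The SD of the pair differences was 0.73, larger than the 0.61 among parental lines. The log2 difference over all pairs was -0.28 (SE 0.243, 95% interval -0.82 to 0.26, limma adjusted p = 0.601). It was -0.54 without line 53105 and -0.11 without line 52419, and passed the threshold in neither case.

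**Figure D4:**
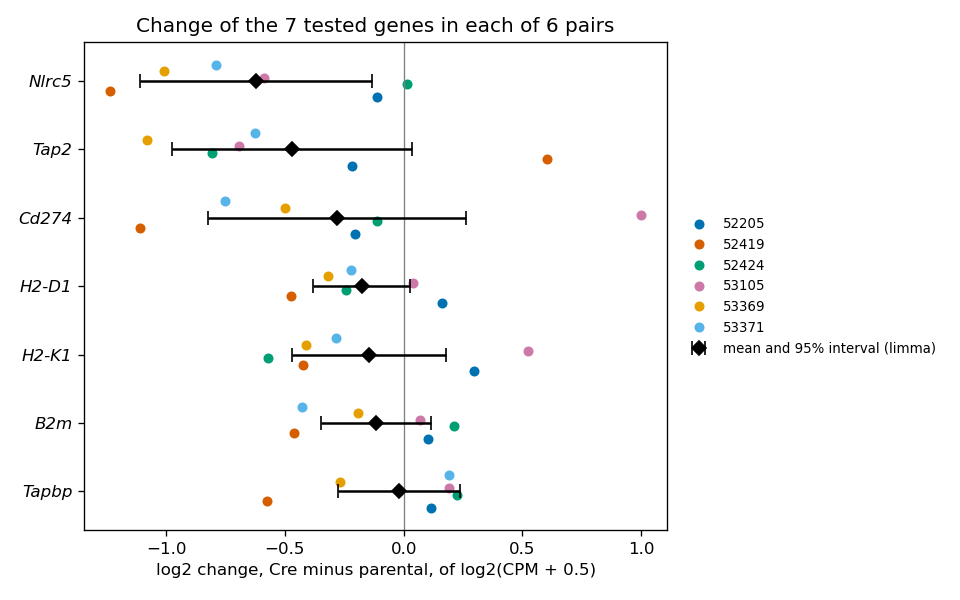
Cre minus parental difference of the 7 tested genes in log2(CPM + 0.5), on the horizontal axis, with 1 coloured point per cell line and a black diamond with bars for the limma estimate and its 95% interval. Every interval except that of Nlrc5, from -1.11 to -0.13, includes 0.

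Grouped by line, the 7 tested genes did not differ alike. In line 53369 7 of 7 were lower in Cre cells, with a median log2 difference of -0.41, where 48.5% of all tested genes were lower in that pair. In lines 52419 and 53371 6 of 7 were lower, with medians of -0.48 and -0.43, where 47.3% and 52.9% of all genes were lower. The exceptions were Tap2 in line 52419 and Tapbp in line 53371. In line 52424 4 of 7 were lower, in line 52205 3 of 7 and in line 53105 2 of 7, with medians of -0.11, 0.10 and 0.07. Each of these lines has 1 library per condition, so these counts have no replicate check. The median difference over all genes was between -0.03 and 0.01 in every pair.

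Genes around the pathway were read in the same fit, and none of them was called, against 0.0236% of all genes tested. Of all genes tested, 50.1% had an estimate below 0, and 4.56% were lower and 4.11% higher in 6 of 6 pairs. Of 13 class I relatives and assembly factors, 11 were tested, 5 with an estimate below 0 and 6 above, with a median of 0.01. Calr, the chaperone calreticulin, was higher in Cre cells in 6 of 6 pairs, at 611 ± 48.6 CPM in Cre and 511 ± 57.5 CPM in parental libraries (log2 difference 0.26, limma adjusted p = 0.278). H2-Q4, a nonclassical class I gene, shares 24.3% of its 50-base words and 2.66% of its 100-base words with other genes. It had a log2 difference of -0.44 (adjusted p = 0.329 by limma). Mr1, which presents vitamin metabolites, had one of -0.37 (limma adjusted p = 0.406), or -0.21 without line 52419. Psme1 and Psme2, the subunits of the interferon-inducible proteasome cap, had log2 differences of -0.29 and -0.32 (limma adjusted p = 0.266 and 0.366), each lower in 5 of 6 pairs. Psmb5, Psmb6 and Psmb7 had 0.02, 0.05 and 0.11, and the signs of Psmb5 and Psmb6 turned with some pairs left out, to -0.028 for Psmb5 without line 53369 and -0.010 for Psmb6 without line 52205.

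Of 15 known regulators of class I genes, 7 estimates lay below 0 and 8 above, with a median of 0.02. At an unadjusted limma p under 0.05, 3 were lower and 1 higher, against 8.18% and 6.96% of all genes tested. Of all genes, 4.56% were lower in 6 of 6 pairs. Irf8, an interferon regulatory factor best known in immune cells, had 2.84 ± 3.79 CPM in Cre and 5.35 ± 4.94 CPM in parental libraries (log2 difference -1.09, limma adjusted p = 0.137), lower in 6 of 6 pairs. Irf9, a DNA-binding factor of type I interferon responses, had 9.14 ± 1.40 CPM in Cre and 24.7 ± 21.4 CPM in parental libraries (-1.08, limma adjusted p = 0.232), also lower in 6 of 6 pairs. Line 52419 had 8.22 CPM of Irf9 in Cre and 67.0 CPM in parental cells, and without it the log2 difference was -0.71 (limma adjusted p = 0.365). Ezh2, a histone methyltransferase known to silence class I genes, had a log2 difference of 0.30 (limma adjusted p = 0.230). The interferon list had 2 of 7 members in the table, the interferon Ifnb1 and Il15, a cytokine listed with them. Ifnb1 had 0 reads over all Cre libraries and 3 reads over all parental libraries. Il15 had at most 2.96 CPM in Cre and 2.67 CPM in parental libraries. Class II genes, with 4 of 7 in the table, summed to at most 1.93 CPM in Cre and 2.24 CPM in parental libraries.

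Around PD-L1, 8 of 14 other checkpoint and inhibitory ligands were tested, with a median of -0.35. Of these, 7 had an estimate below 0, against 50.1% of all genes tested. At an unadjusted limma p under 0.05, 5 were lower, against 8.18% of all genes tested. Vsir, which encodes the ligand VISTA, had 1.94 ± 1.52 CPM in Cre and 4.64 ± 2.37 CPM in parental libraries, with a log2 difference of -1.17 (limma adjusted p = 0.140), lower in 6 of 6 pairs. Nectin2, a ligand of the receptors TIGIT and CD226, had -0.35 (limma adjusted p = 0.245), lower in 5 of 6 pairs. Ceacam1, an adhesion molecule that binds itself and TIM-3, had -1.15 (limma adjusted p = 0.257), also lower in 5 of 6 pairs. With a pair left out, Ceacam1 ranged from -1.38 without line 53371 to -0.78 without line 52419. Of 8 genes that handle or induce PD-L1, 3 were lower at an unadjusted limma p under 0.05, each in 6 of 6 pairs. Of all genes tested, 8.18% were lower at that p and 4.56% were lower in 6 of 6 pairs. The 3 genes were Myc at -0.29, Spop, a ubiquitin ligase adaptor of PD-L1, at -0.16, and the hypoxia factor Hif1a at -0.18 (limma adjusted p = 0.293, 0.295 and 0.316). Of 6 ligands of natural killer cell receptors, 5 were tested and had a median of 0.22, which was -0.012 without line 53105, 0.019 without line 53371 and -0.062 in the deposited log2 table. Clec2d had -0.33, Ulbp1 0.24 and Raet1e 0.31 (limma adjusted p = 0.523, 0.614 and 0.633). Raet1e was at -0.012 without line 53105, where its pair difference was 1.91, and Ulbp1 at 0.019 without line 53371, where its pair difference was 1.34. Clec2d ranged from -0.53 without line 52424 to -0.19 without line 53371.

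By likeness of log2 level over the 12 libraries, the genes closest to H2-K1 were Cln3, 1810024B03Rik, Tmem68, Krcc1 and 3110040N11Rik, with r between 0.93 and 0.95. Those closest to Nlrc5 were Akr1b10, 9130023H24Rik, Zmym3, Zfp108 and Slc30a9, with r between 0.83 and 0.88. Those closest to Cd274 were Kdm4b, Pbx2, Ccng2, Prss12 and Tomm6os, with r between 0.88 and 0.90. The 12 libraries are 2 from each of 6 lines, and the closest genes were picked as the highest of all genes tested, with the 10 genes of the set left out.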

How the data were processed

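Poly(A)-selected RNA of 12 cultures was sequenced, 1 Cre and 1 parental culture of each of 6 lines. Tools listed in the submitters' processing notes are featureCounts, edgeR and FastQC 0.11.9, with builds GRCm38 and mm10, and no aligner. The deposited signal is reads per M (1000000) of a TMM-scaled library size (CPM), and every value was a whole number of reads within 0.01, so reads were recovered. The deposited log2 table, with 10903 genes and 5 of the 10 genes described, served as an alternative. Entrez numbers were named from RefSeq (GRCm38.p6; 19448 named).

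Genes with at least 1 CPM in at least 6 libraries were tested with limma 3.58.1 (R 4.3.3) on log2(CPM + 0.5), trended variance, cell line as block, 2-sided, Benjamini-Hochberg over 12734 genes, called under 0.05. A change on this scale understates that of low genes. The lines are isogenic pairs by their labels: deviations from group means correlated at 0.732 to 0.946 within pairs, above those with any other line. With 1 library per line and condition, p-values measure how alike the lines changed. The fitting step was tested on simulated data.

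The test was repeated with other pseudocounts, filters and scalings, with the log2 table, no block, robust variance, library weights, edgeR 4.0.16, DESeq2 1.42.0 and each pair left out. The genes, lists and motifs were chosen with earlier results of these data known. From each list the 3 genes with the smallest p are named, and beside each of H2-K1, Nlrc5 and Cd274 the 5 genes with the highest correlation. The result of 1 gene is not reported here, while counts of its list include it.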

Additional observations from a re-analysis of the deposited data

Results flagged for a closer look

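The CPM of each of the 10 genes in the 6 Cre libraries, in the 6 parental libraries and their 6 pair differences were searched for a single value far from the others. It was found in 6 of 30 such groups, and each time the library was of line 52419. Chance gives such a value in about 1 in 20 independent groups of normally distributed values. These 30 share libraries and lines and are not independent. The levels were searched as CPM without a log, some on few reads, and need not be normally distributed. The counts therefore cannot be set against each other. B2m had 532 CPM in its Cre library, with the next Cre library at 261 CPM, and 733 CPM in its parental library, with the next parental library at 310 CPM. Tap2 had 7.61 CPM in its Cre library, with the next at 2.55 CPM. In its parental library Tap1 had 2.68 CPM, with the next at 0.775 CPM, Tapbp had 143 CPM, with the next at 86.0 CPM, and Psmb8 had 0.818 CPM, with the next at 0.300 CPM. This is also the line with the lowest ductal marker sum, and the part of either in the other was not tested.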

How the results depend on the processing

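No gene of the set was called under any of the settings tried, among them edgeR without a filter, which was chosen after seeing the data. The number of all genes called lower in Cre cells was 3, and it was 0 with no filter on low values, 33 with library weights, 5 by edgeR, 208 by DESeq2, 57 by edgeR without a filter and 0 to 5 with a pair left out. Without the replicate block, that is without the pairing by line, 0 genes were called. None was called higher, against 1 with library weights, 62 by DESeq2 and 4 by edgeR without a filter. The sign turned for Tapbp, to 0.091 without line 52419 and 0.029 without line 53369 (range over pairs left out -0.070 to 0.091), and for the log2 ratio of Psmb10 to Psmb7, to -0.019 without line 52424 (range -0.019 to 0.11). Medians of lists near 0 turned too. That of the class I relatives was -0.10 without line 52424, that of the regulators was -0.069 with library weights and -0.025 to 0.043 over pairs left out, and that of the natural killer ligands was -0.062 in the deposited log2 table and -0.012 to 0.29 over pairs left out. Over pairs left out, H2-K1 ranged from -0.28 to -0.06, B2m from -0.18 to -0.05 and Cd274 from -0.54 to -0.11. Without a filter, edgeR gave -1.85 for Tap1 (adjusted p = 0.247), -1.16 for Psmb8 (0.680) and -1.25 for Psmb9 (0.816), on the few reads given above. The causes of these differences were not tested. No other scaling moved the median of all genes by as much as 0.1. Depth limits Tap1, Psmb8 and Psmb9, which have few reads in most libraries.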
